A study of Emiliania huxleyi with 18 samples.

Results

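In control cultures of the coccolithophore Emiliania huxleyi, 153 of 41734 genes had lower transcript levels on day 10 than on both day 7 and day 13. They were picked by their mean log2 CPM (UMI counts scaled to library size) in control cultures, which had to fall by at least 0.7 from day 7 to day 10 and rise by at least 0.7 from day 10 to day 13. A UMI, or unique molecular identifier, marks 1 captured transcript. Only the 14399 genes with at least 500 UMIs in all libraries together were considered. More than 10 UMIs were also required over the control libraries of day 7 and over those of day 13. The 153 genes made up 1.06% of the genes considered, and the upper limit of 200 genes was not reached. Because the control values chose these genes, the control trough is given as a description, and tests were made within the UV cultures. The UV libraries entered the choice only through the minimum of 500 UMIs and the scaling between libraries.

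The series held 18 libraries from axenic cultures of E. huxleyi strain CCMP3266, in 6 groups of 3. UV cultures received growth light plus 14 h per day from a UV lamp and were harvested on day 7, 10 or 13, and control cultures received the growth light alone and were harvested on the same days. Per the labels, UV-A stood at 0.5, UV-B at 0.07 and UV-C at 0.026 W per m2. All cultures were started at 330 cells per ml in 50 ml of artificial sea water and stood at 18 °C under 16 h of light and 8 h of dark. The growth light was 130 µmol photons per m2 per s in all of them. The labels number the replicates without saying that each number is a separate flask, so p-values measure the spread between these libraries, which may be partly technical.

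E. huxleyi is a unicellular marine alga that covers itself with calcite plates and forms large blooms. In a closed flask, such algae pass from rapid growth into a slower phase as nutrients are used up, and their transcript levels change with the age of the culture. A gene that is low only in the middle of such a course therefore does not follow a steady drift with age. The deposited identifiers carry no gene names, 0 of them were found in the reference gene table, and the roles of the genes are not given here.

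The day 10 libraries were of unequal depth and differed in UMIs per read. UMI totals over the 18 libraries ranged from 1060640 to 9216603. Replicates 1 and 2 of both arms on day 10 had 0.870 to 0.876 UMIs per read, whereas the other 14 libraries had 0.70 to 0.795, and these 4 libraries held 1124600 to 1699470 UMIs, against 5420491 in UV day 10 replicate 3 and 7455081 in control day 10 replicate 3. No label names this as a batch. The contrast of UV day 10 against the mean of the other UV days is therefore also given for replicates 1 and 2 alone and for replicate 3 alone. Other results that rest on day 10 are split in this way only in part or not at all.

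As a group, the trough genes lay at the low end of the genes considered. Their mean level over the 18 libraries had a median of 9.67 CPM, with a range of 4.70 to 453 CPM. All genes considered had a median of 26.7 CPM and a lower quartile of 14.4 CPM. In total UMIs the median was 876 for the trough genes and 2215 for all genes considered. A second identifier in the files was shared with another gene for 9 of the 153 genes, so that reads could be divided between entries, and 1 gene had none. For comparison, 789 of the 14399 genes considered had a shared second identifier.

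The median log2 CPM of the trough genes gives the shape of the control trough and of the UV course library by library. On day 7 it was 3.55, 3.60 and 3.60 in the UV libraries, against 3.52, 3.65 and 3.69 in the control libraries. On day 10 it was 2.92, 3.07 and 3.13 in the UV libraries, against 2.03, 2.36 and 3.03 in the control libraries. On day 13 it was 3.49, 3.49 and 3.46 in the UV libraries, against 3.52, 3.61 and 3.70 in the control libraries. Each of the 6 day 10 libraries thus had a lower median than each of the 12 libraries of days 7 and 13, and control replicates 1 and 2 lay lowest. The low control values on day 10 follow from the choice of the genes. The median of all genes considered stayed between 4.70 and 4.79 in all 18 libraries, which the scaling between libraries favours.

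**Figure D1:**
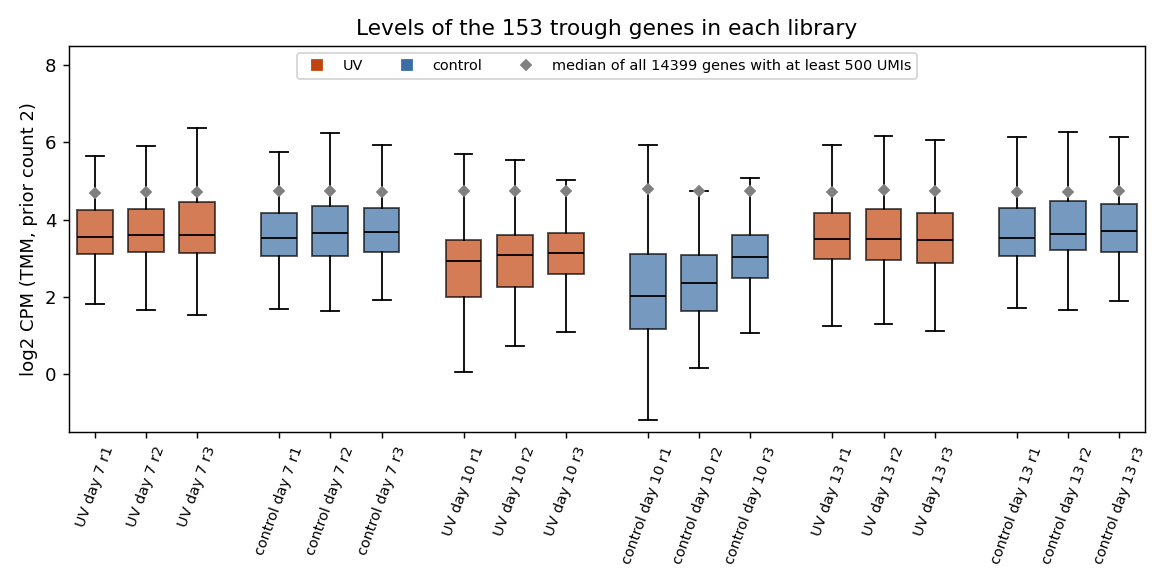
Levels of the 153 trough genes in each of the 18 libraries, as log2 CPM with TMM scaling and a prior count of 2. Boxes span the quartiles with the median as a line, whiskers reach the farthest gene within 1.5 box lengths, orange boxes are UV and blue boxes control libraries, and grey diamonds mark the median of all 14399 genes considered. The boxes of day 10 sit lowest in both arms, and control day 10 replicates 1 and 2 have medians of 2.03 and 2.36.

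The share of all UMIs that came from the trough genes dipped on day 10 as well. On day 7 it was 0.361% ± 0.0214 in UV and 0.330% ± 0.0150 in control libraries (SD, n = 3 each). On day 10 it was 0.201% ± 0.0170 in UV and 0.172% ± 0.0319 in control libraries, and on day 13 it was 0.346% ± 0.00467 in UV and 0.408% ± 0.0260 in control libraries (SD, n = 3 each). In control libraries the choice of the genes favours this dip. Abundant genes weigh most in the share, as G3527 held 40226 UMIs in all, against a median of 876 over the trough genes. Since these are bulk cultures, fewer cells with a transcript and less transcript per cell cannot be told apart.

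Within control cultures, the first step from day 7 to day 10 had a median of -1.06 on the log2 scale (range -3.39 to -0.70), and the second step to day 13 had a median of 1.03 (range 0.70 to 4.60). The net difference of control day 13 minus day 7 had a median of -0.01, with a range of -1.88 to 3.31, 79 genes below 0 and 74 above. Every control day 10 library was below every control day 7 and day 13 library for 102 of the 153 genes, and for 4.48% of all genes considered. The choice of the genes fixes much of this count, and nothing is read from it. For the other 51 genes, at least 1 control day 10 library overlapped with the earlier or later ones.

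Taken alone, control day 10 replicate 3, the deep library, met both step thresholds for 48 of the 153 genes and lay below the mean of days 7 and 13 for 144 of them. Replicates 1 and 2 met both thresholds alone for 121 and 118 genes. At the depth of those libraries the trough genes had a median of 4 and 7 UMIs per gene, against 56 in replicate 3, so single values there carry a large counting error. On day 10, replicates 1 and 2 were both below replicate 3 for 63 of the 153 genes in UV cultures and for 105 of them in control cultures. The control count comes from libraries that chose the genes. The same counts over all genes considered are not given here, so nothing is read from the difference. Depth, UMIs per read and replicate number moved together in these libraries, and their part in the depth of the control trough was not tested. Leaving out each of the 9 control libraries in turn, 41 of the genes met the rule every time. The minimum of 500 UMIs was applied anew to the libraries left, so genes near it could fail on their count alone. G31448, with 501 UMIs in all and control steps of -1.24 and 1.23, met the rule 0 times. The 41 genes are thus partly chosen by depth, and failing does not mean that a trough rested on 1 library.

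The genes nearest the threshold show how narrow its margin is. The smaller of the 2 control steps was 0.703 for both G8412 and G30764, the last genes inside, and 0.6998 for G32936 and 0.6993 for G25668, the first genes outside. In control cultures, G8412 averaged 11.6 ± 2.28 CPM on day 7, 6.46 ± 2.03 on day 10 and 10.7 ± 0.615 on day 13 (SD, n = 3 each). G32936, which was not taken, averaged 14.7 ± 2.10, 8.39 ± 1.90 and 13.9 ± 0.567 CPM on the same days (SD, n = 3 each). Both profiles have nearly the same shape.

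The UV cultures asked whether the same genes dipped on day 10 in libraries whose changes between days had no part in choosing them. UV day 10 was set against the mean of UV days 7 and 13, with edgeR's quasi-likelihood test over 18196 genes and Benjamini-Hochberg adjustment, at a threshold of 0.05. Of the 153 trough genes, 61 were lower on UV day 10 and 0 higher. Among all genes considered, 7.91% were called lower and 8.95% higher. The median log2 fold change was -0.61 over the trough genes, with 142 of 153 below 0, whereas it was 0.02 over all genes considered. Beside the count of 0, an unadjusted p under 0.05 with a rise was reached by 0 of the trough genes in edgeR. DESeq2 called 59 lower and 0 higher. The shares of all genes considered are not given here for these counts, so nothing is read from them.

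The UV dip was present in each part of the day 10 libraries, with fewer calls. With UV and control day 10 replicates 1 and 2 alone, 47 trough genes were called lower, against 5.39% of all genes considered. With replicate 3 alone, 32 were called lower, against 4.06%, in a fit where the lone library of each arm is assumed to vary like the other groups. With a term for replicates 1 and 2, an alternative chosen after seeing the data, 37 were called lower, against 4.93%. The median log2 fold change of the trough genes was -0.80, -0.56 and -0.45 in these 3 fits.

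**Figure D2:**
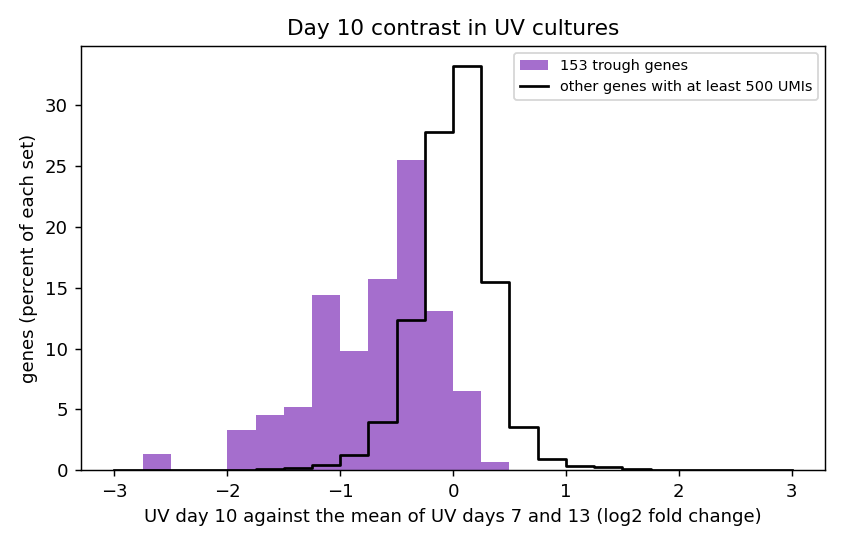
Distribution of the log2 fold change of UV day 10 against the mean of UV days 7 and 13, in bins of 0.25, as the percent of each set of genes. Purple bars are the 153 trough genes and the black line is the other genes with at least 500 UMIs. The purple bars are shifted to the left of 0, with a median of -0.61 against 0.02 for all genes considered.

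A count without a model gave a like picture. Every UV day 10 library was below every UV day 7 and UV day 13 library for 54 of the 153 trough genes (35.3%), and for 3.13% of all genes considered. The step thresholds of 0.7, applied to the UV libraries, were met by 48 of the trough genes (31.4%) and by 0.861% of all genes considered. This UV list held 124 genes, so the 48 shared genes were 31.4% of the control list and 38.7% of the UV list. By single library, UV day 10 replicates 1, 2 and 3 met both thresholds alone for 61, 54 and 32 of the trough genes. The shares of all genes considered are not given here for these single libraries.

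By single library, 91, 81 and 73 of the trough genes had their value in UV day 10 replicates 1, 2 and 3 below all 6 UV libraries of days 7 and 13. The shares among all genes considered were 14.8%, 15.4% and 9.66%. In control day 10 replicates 1, 2 and 3, whose values chose the genes, the counts were 145, 142 and 110, and the shares among all genes considered were 20.9%, 18.9% and 11.1%. In both arms the deep replicate 3 had the lowest count and the lowest share among all genes considered.

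**Figure D3:**
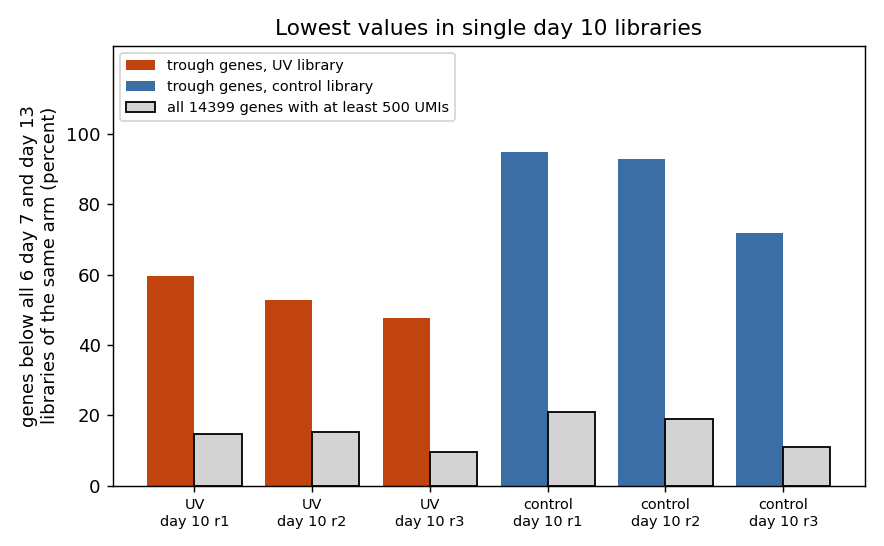
Percent of genes whose value in a day 10 library was below all 6 day 7 and day 13 libraries of the same arm. Orange bars are the 153 trough genes in UV libraries, blue bars the same genes in control libraries and grey bars all 14399 genes considered. The orange bars stand at 59.5%, 52.9% and 47.7%, and the grey bars beside them at 14.8%, 15.4% and 9.66%.

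The 2 steps of the UV course were also tested one at a time with edgeR. From UV day 7 to UV day 10, 75 of the 153 trough genes fell and 1 rose, with 21.2% of all genes considered called lower and 21.2% called higher. The median log2 fold change was -0.75 over the trough genes and 0.05 over all genes considered. From UV day 10 to UV day 13, 54 trough genes rose and 0 fell, with 9.52% of all genes considered called higher and 13% called lower. DESeq2 called 45 higher and 0 lower, and 0 trough genes had a fall with an unadjusted p under 0.05 in edgeR. For these counts too, the shares of all genes considered are not given here, and nothing is read from them. The median log2 fold change of this step was 0.52 over the trough genes and -0.01 over all genes considered. With day 10 replicate 3 alone the rises numbered 29, against 6.81% of all genes considered, and 1 trough gene fell.

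Both UV steps were called for 39 of the 153 trough genes (25.5%), and for 1.58% of all genes considered. These 39 genes had a median first step of -1.18 and a median second step of 1.03 on the log2 scale. A further 36 genes (23.5%) were called for the fall alone, with a median first step of -0.94 and a median second step of 0.34. Another 15 (9.8%) were called for the rise alone, with medians of -0.34 and 1.11. Over all genes considered, 19.6% were called for the fall alone and 7.94% for the rise alone, which is near the shares of the trough genes. The remaining 63 trough genes were called for neither, with medians of -0.37 and 0.34. The genes called for neither step had the lowest median depth, with 662 UMIs in all, whereas the median was 1325 UMIs for those called for both.

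Calls by depth are set beside all genes of like depth. Among the 64 trough genes with 1000 UMIs or more, 38 were called lower on UV day 10 against the mean of days 7 and 13, and among the 89 with fewer, 23 were called, so that 59.4% and 25.8% were called. Among all genes considered, 8.62% of those with 1000 UMIs or more and 4.75% of those with fewer were called lower. The median log2 fold change of that contrast was -0.70 in the deeper genes and -0.48 in the shallower ones. Of the 48 genes whose control day 10 replicate 3 met the thresholds alone, 30 were called, and of the other 105, 31 were called. This split uses the control values, and the difference was not tested. Of the 41 genes that met the rule without each control library in turn, 28 were called lower in UV cultures, with a median log2 fold change of -0.97. Those 41 genes were partly chosen by depth, and deeper genes were called more often, so nothing is read from that count.

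The authors' deposited table, made with DESeq2, gives its own comparisons of the same UV libraries. In the authors' deposited table, 69 of the 153 trough genes had an adjusted p under 0.05 and were lower on UV day 10 than on UV day 7, against 15.8% of the 20313 genes listed, and 1 was higher. For UV day 10 over UV day 13, a comparison that runs from the later to the earlier day, the authors' deposited table had 44 trough genes lower on day 10 and 0 higher, against 5.81% of genes lower. The genes listed outnumber the 14399 considered and so include genes with fewer than 500 UMIs. These shares are thus of another set than those above, and shares called higher are not given here. Of the calls made here, 64 of the 75 falls and 42 of the 54 rises were also past that threshold in the authors' deposited table.

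The most abundant trough gene was G3527. Its levels were 716, 761 and 734 CPM in the UV libraries of day 7, 275, 240 and 241 CPM at day 10, and 395, 384 and 395 CPM on day 13. In control libraries they were 612, 660 and 595 CPM on day 7, 253, 257 and 244 CPM at day 10, and 458, 534 and 406 CPM on day 13. The day 10 values overlapped with no others in either arm, and shallow and deep libraries of day 10 gave nearly the same level. In UV cultures the log2 fold change of day 10 against the mean of days 7 and 13 was -1.09 (SE 0.09, edgeR adjusted p = 2.57e-10). G3527 passed in all 20 alternatives tried. Each of its UV libraries of day 13 was below each of day 7, so the return was partial.

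G28676, the next most abundant, returned to its day 7 level in UV cultures. It had 184, 216 and 161 CPM in the UV libraries of day 7, 112, 108 and 106 CPM at day 10, and 177, 220 and 195 CPM on day 13. In control libraries it had 199, 287 and 248 CPM on day 7, 138, 140 and 157 CPM at day 10, and 242, 390 and 271 CPM on day 13. The day 10 libraries were the lowest in both arms, with no overlap. The UV log2 fold change of day 10 against the mean of the other days was -0.83 (SE 0.14, edgeR adjusted p = 0.000168). With day 10 replicate 3 alone it was -0.87 and no longer past the threshold, with an edgeR adjusted p of 0.0841.

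Of the trough genes whose UV day 10 libraries were all below those of days 7 and 13, G26115 and G38437 had the most negative contrast of UV day 10 against the mean of days 7 and 13. G38437 had 9.01, 10.2 and 9.42 CPM in the UV libraries of day 7, 1.17, 4.81 and 2.38 CPM at day 10, and 13.8, 9.54 and 10.98 CPM on day 13. In control libraries it had 9.06, 11.3 and 10.6 CPM, then 2.65, 1.32 and 3.39 CPM, then 10.5, 11.9 and 11.4 CPM on the same days. Both arms gave a dip of the same form, with day 7 and day 13 at like levels. The UV log2 fold change was -1.98 (SE 0.28, edgeR adjusted p = 3.34e-06), and it passed in all 20 alternatives tried.

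G26115 was instead a gene that ended far above its start. It had 6.01, 5.39 and 4.42 CPM in the UV libraries of day 7, 1.17, 0 and 1.83 CPM at day 10, and 23.7, 5.40 and 20.0 CPM on day 13. In control libraries it had 1.97, 5.01 and 3.32 CPM on day 7, 0, 2.64 and 2.03 CPM at day 10, and 39.9, 38.8 and 30.1 CPM on day 13. Control days 7 and 10 overlapped, so that the dip was small beside the later rise. The UV log2 fold change was -2.68 (SE 0.76, edgeR adjusted p = 0.0310), resting on 12 UMIs over the UV day 10 libraries. The call was lost in 8 of 20 alternatives (adjusted p over all of them 8.72e-07 to 0.262), among them leaving out UV day 7 replicate 2 or UV day 10 replicate 1, 2 or 3, with edgeR adjusted p of 0.0589, 0.0838, 0.0823 and 0.116. The log2 fold change was -3.79 without UV day 10 replicate 3 and -4.22 with all libraries thinned to equal depth.

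**Figure D4:**
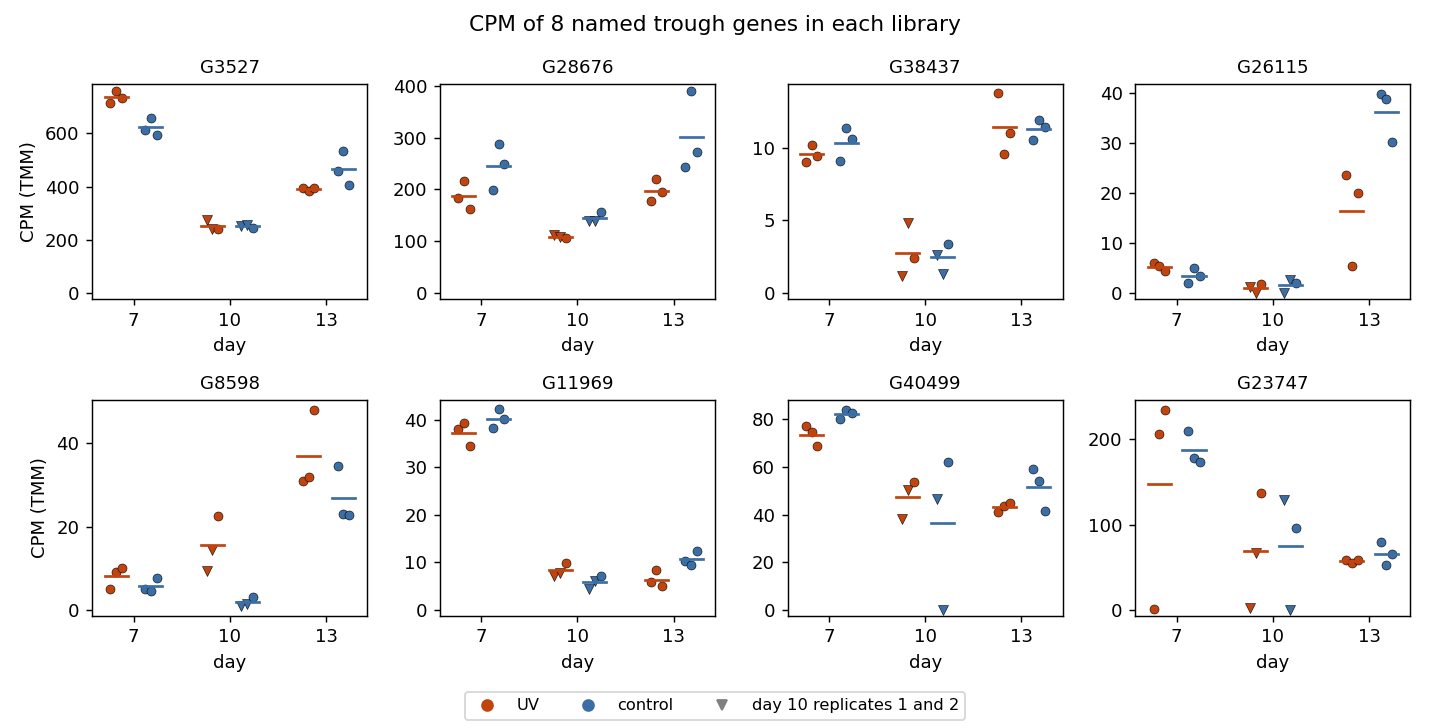
CPM of 8 named trough genes against harvest day, with 1 point per library and a line at the mean of each group of 3. UV libraries are orange and control libraries blue, and triangles mark day 10 replicates 1 and 2. G3527, G28676 and G38437 dip in both arms, G8598 dips in the control arm alone, and G40499 and G23747 each have a control day 10 library at 0.

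Some trough genes showed no dip in UV cultures. The genes with the most positive UV contrast were G1057 and G22304. G1057 had 12.02, 10.8 and 9.19 CPM in the UV libraries of day 7, 16.4, 9.61 and 11.9 CPM at day 10, and 10.2, 9.90 and 10.0 CPM on day 13, so that the days overlapped. Its control values on day 10 were 3.53 and 3.30 CPM in replicates 1 and 2, from 4 and 5 UMIs, and 10.2 CPM in replicate 3, from 75 UMIs. The deep control library was thus at the level of the other control days, which was 8.72 to 9.70 CPM on day 7 and 9.80 to 13.0 CPM on day 13. The UV contrast of G1057 was 0.31 (SE 0.21, edgeR adjusted p = 0.362). That of G22304 was 0.23 (SE 0.37, edgeR adjusted p = 0.747). G22304 shares its second identifier with another gene, so its value is uncertain, and its contrast turned to -0.38 without UV day 10 replicate 3.

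The deepest control troughs among genes with at least 1000 UMIs, those of G40499 and G23747, rested on 1 library each, with 0 UMIs. In UV libraries, G40499 had 77.1, 74.9 and 68.7 CPM on day 7, 38.1, 50.5 and 53.9 CPM at day 10, and 41.1, 43.7 and 44.9 CPM on day 13, so that days 10 and 13 overlapped. In control libraries it had 80.2, 83.9 and 82.8 CPM on day 7, 46.7, 0 and 61.9 CPM at day 10, and 59.3, 54.2 and 41.4 CPM on day 13. The other 2 control libraries of day 10 predicted 82.3 UMIs in replicate 2, the library with 0. The UV contrast was -0.21 (SE 0.41, edgeR adjusted p = 0.803).

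G23747 varied more between UV libraries of the same day. UV day 7 replicate 1 had 1.00 CPM, while replicates 2 and 3 had 206 and 234 CPM, and UV day 10 replicate 1 had 2.34 CPM, beside 66.7 and 137 CPM in replicates 2 and 3. The control libraries of day 10 had 129, 0 and 96.4 CPM, with 170 UMIs predicted in replicate 2, where 0 were found. Its UV contrast was -0.32 (SE 0.81, edgeR adjusted p = 0.849). As 2 genes carry its second identifier, reads may be split between them and its values are uncertain. A library at 0 UMIs where the other 2 libraries of its group predicted at least 10 was found for 6 of the 14399 genes considered and for 3 of the 153 trough genes. For the 3 trough genes the library was control day 10 replicate 2, and they were all such genes of that library. A count of 0 there lowers the control day 10 mean that the rule used. The choice thus favours such genes, and nothing is read from their number.

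The return to the day 7 level was compared in UV cultures by setting day 13 against day 7. Of the 153 trough genes, 40 were lower and 19 higher on UV day 13 in edgeR's test, against 27.6% and 29.6% of all genes considered. Under total-count scaling the split was 18 lower and 33 higher, where 64.9% of all genes considered were called in either direction, against 57.2% with TMM. That scaling moved the median change over all genes considered, in log2, to 0.32, where TMM gave 0.05, and the median of the trough genes to 0.08, where TMM gave -0.18. Relative to all genes, the trough genes were thus lower by a like amount under both scalings. The count of calls was 36, with 28 lower and 8 higher, without UV day 7 replicate 3, where 48.2% of all genes considered were called.

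G11969 and G7455 had the largest falls from UV day 7 to UV day 13. G11969 had 38.1, 39.5 and 34.5 CPM in the UV libraries of day 7, 7.03, 7.81 and 9.89 CPM at day 10, and 5.79, 8.28 and 4.88 CPM on day 13. In control libraries it had 38.2, 42.3 and 40.1 CPM on day 7, 4.41, 5.94 and 7.05 CPM at day 10, and 10.3, 9.35 and 12.4 CPM on day 13. The late rise of the control arm was thus small beside the first fall, and the UV libraries of days 10 and 13 overlapped. The log2 fold change of UV day 13 against UV day 7 was -2.50 (SE 0.17, edgeR adjusted p = 5.69e-15). For G7455 it was -2.13 (SE 0.44, edgeR adjusted p = 0.000291), at means of 9.45 ± 3.21 CPM on UV day 7 and 2.26 ± 0.387 CPM on UV day 13 (SD, n = 3 each). Its control libraries of day 10 had 0.882, 0.660 and 8.67 CPM, from 1, 1 and 64 UMIs. Those of control day 13 had 5.77, 6.97 and 4.17 CPM. Control day 10 replicate 3 was thus above each of them, and the control trough of G7455 rested on replicates 1 and 2.

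G8598 and G22630 had the largest rises from UV day 7 to UV day 13. G8598 was the trough gene called higher on UV day 10 than on UV day 7, with 5.01, 9.05 and 10.0 CPM on day 7, 9.37, 14.4 and 22.5 CPM at day 10, and 30.9, 32.0 and 48.1 CPM on day 13. In control libraries it had 4.92, 4.58 and 7.58 CPM on day 7, 0.882, 1.32 and 2.98 CPM at day 10, and 34.5, 23.1 and 22.9 CPM on day 13. The UV libraries thus climbed over the course while the control libraries dipped first, and UV days 7 and 10 overlapped. The log2 fold change of UV day 10 against day 7 was 0.93 (SE 0.31, edgeR adjusted p = 0.0220). It was not past the threshold without UV day 7 replicate 2 or UV day 10 replicate 3, with edgeR adjusted p of 0.0682 and 0.455, nor with day 10 replicates 1 and 2 alone, at 0.488, and it was 1.88 at equal depth. UV day 13 against UV day 7 gave 2.01 (SE 0.26, edgeR adjusted p = 1.76e-06).

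For G22630 the log2 fold change of UV day 13 against UV day 7 was 1.81 (SE 0.53, edgeR adjusted p = 0.0101). Its UV day 7 libraries had 1.00, 6.35 and 2.44 CPM, and its UV day 13 libraries had 11.3, 14.8 and 13.4 CPM, with no overlap. Without UV day 7 replicate 3 the value was 1.32 with an edgeR adjusted p of 0.0955, and without UV day 7 replicate 2 it was 2.54.

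Differences between UV and control cultures on the same day hold control libraries that chose the genes and are described without a test. On day 7 the log2 difference of UV minus control was above 0 for 77 trough genes and below 0 for 76. On day 10 it had a median of 0.40 (quartiles 0.06 and 0.78), with 119 genes above 0 and 34 below. Choosing genes for low control values on day 10 favours such a difference. On day 13 the median was -0.13 (quartiles -0.34 and 0.02), with 42 genes above 0 and 111 below. Choosing genes for high control values on days 7 and 13 favours a difference below 0 on those days. The same counts over all genes considered are not given here, and nothing is read from these counts.

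The UV and control dips of each gene are set side by side as a description, since the control dip was what the genes were chosen for. The dip, taken as day 10 minus the mean of days 7 and 13 in log2 CPM, had a median of -0.67 (range -2.95 to 0.51) in UV and of -1.09 (range -2.95 to -0.72) in control cultures. It was deeper in UV than in control cultures for 23 of the 153 genes, a low number that the choice of genes with a deep control dip favours. The choice also narrows the range of the control dips. Spearman's rho between both dips was 0.42 over the 153 genes, which share the same libraries, scaling factors and split of the day 10 libraries, and genes are not independent replicates. A low mean could rest on the shallow libraries. G35749, chosen after its values were seen, had log2 CPM of -1.19, the value of a count of 0, in UV day 10 replicates 1 and 2 and 3.33 in replicate 3, against 3.51 to 3.78 on UV day 7 and 2.61 to 2.98 on UV day 13. Its UV contrast was not past the threshold (edgeR adjusted p = 0.479).

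**Figure D5:**
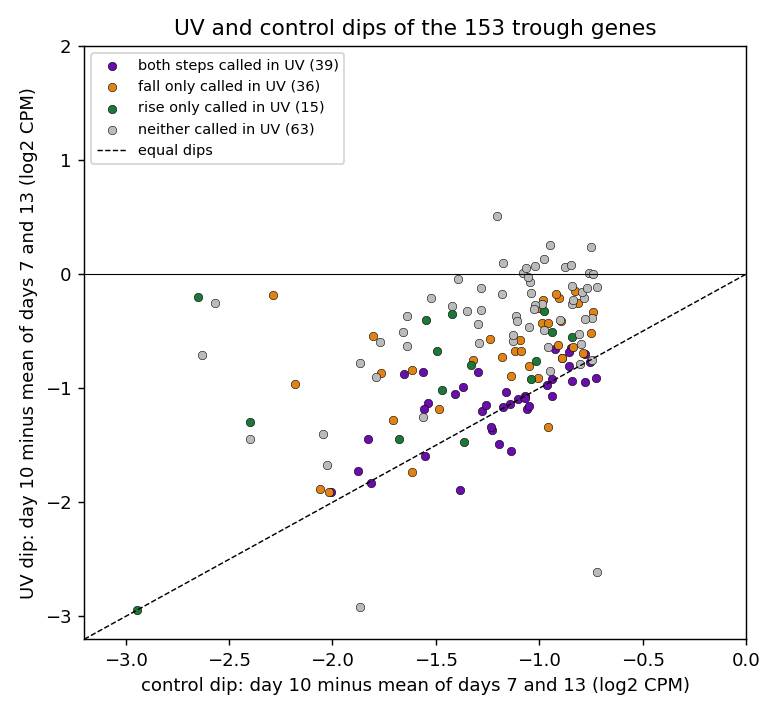
UV dip (vertical) against control dip (horizontal) of the 153 trough genes, each as day 10 minus the mean of days 7 and 13 in log2 CPM, with 1 point per gene. Colours give which UV steps were called, which was both for 39 genes, the fall alone for 36, the rise alone for 15 and neither for 63, and the dashed line marks equal dips. The control dips were chosen to be deep, which favours points above the dashed line, and 23 lie below it.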

How the data were processed

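The authors deposited matrices of UMI counts and read counts per gene from MARS-seq2.0 libraries, a method that tags each captured transcript with a UMI, per the labels' protocols. The authors also deposited a table of DESeq2 results, with log2 fold changes and p-values adjusted over genes, per the file headers. Not given in the sources used here are the aligner, the build and the annotation.

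The rule was applied to TMM-scaled log2 CPM (prior count 2) of the 14399 genes with at least 500 UMIs. Testing used the quasi-likelihood fit of edgeR 4.0.16 in R 4.3.3, two-sided, on UMI counts of all 18 libraries with 1 mean per group, after filterByExpr (minimum count 10, minimum total 15). This left 18196 genes, over which p-values were adjusted, and all 153 trough genes were among them. CPM given for single genes use TMM factors over these genes. The SE is the log2 fold change divided by the root of its F. The fit was tested on simulated data.

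Identifiers without names were named by a fixed rule, at most 2 each way per comparison: the deepest, the most abundant, those at the threshold, and the largest UV changes. The genes and tests were chosen with earlier results of these data known. Alternatives were other scalings, no low-count filter, DESeq2 1.42.0, read counts, a replicate block, only the 9 UV libraries, parts of day 10, equal depth and each library left out.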

Additional observations from a re-analysis of the deposited data

How the results depend on the processing

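Over the alternatives run, nearly all calls of trough genes kept 1 direction for UV day 10 against UV day 7 (52 to 88 falls), UV day 13 against UV day 10 (29 to 69 rises) and UV day 10 against the mean of UV days 7 and 13 (32 to 73 falls). With day 10 replicate 3 only, there were 29 rises, 1 fall and 32 falls against the mean, and at equal depth 34 rises and 40 falls against the mean. A term for day 10 replicates 1 and 2 gave 37 falls against the mean. The ranges above also hold the main fit counted over the 180 genes found with TMM factors over all rows, not the 153. Over the 153 genes, the most falls against the mean were 69, with only the 9 UV libraries. The shares of all genes considered moved as well. At equal depth they were 5.95% for the rises and 3.92% for the falls against the mean, where the main fit gave 9.52% and 7.91%. Total-count scaling gave 69 rises, with 18.5% of all genes considered called higher. Leaving out each UV library in turn gave 60 to 80, 43 to 54 and 42 to 63 calls. Without UV day 7 replicate 3 there were 60, 52 and 58 calls, against 17.5%, 8.72% and 5.76% of all genes considered. For UV day 13 against UV day 7, 59 calls became 31 at equal depth and 33 with DESeq2, and 36 to 60 without each UV library. The share of all genes considered that was called moved with them, to 39.9% at equal depth and 48% with DESeq2, against 57.2%. The cause was not tested, beyond the lower depth of the thinned libraries, where 144 of the trough genes were tested at a median of 10 UMIs per gene and library.

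The rule found 347 genes at a threshold of 0.5 and 57 at 1.0, 524 genes at a minimum of 100 UMIs and 78 at 1000. It found 310 genes with control day 10 replicates 1 and 2 only, and 80 with replicate 3 only, of which 136 and 51 were among the 153. Without each control library in turn it found 136 to 310 genes, with the minimum of 500 UMIs applied to the libraries left. With TMM factors over all rows, chosen after seeing the data, it found 180 genes, which held all 153. Total-count scaling found 147 genes, which held 109 of them.

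The UV contrast of G23747 was 0.48 with day 10 replicate 3 only, 0.23 with the term for replicates 1 and 2 and 0.17 without UV day 10 replicate 1 (-1.48 to 0.17 over libraries left out). That of G40499 was 0.22 with the term. That of G22304 was -0.41 with day 10 replicates 1 and 2 only and -0.38 without UV day 10 replicate 3 (-0.38 to 0.50 over libraries left out). None of these passed the threshold.

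With the replicate block, the calls were 76 falls, 62 rises, 66 falls against the mean and 60 on day 13 against day 7. The shares of all genes considered were 21.1%, 10.1%, 8.32% and, in either direction, 57.3%. No count of trough genes moved by over 1.5 times. The labels do not say that numbers pair libraries. Deviations of same-numbered libraries correlated at -0.07 to 0.23 over 45 pairs, 2 of them over 0.1, and 14 of 18 libraries correlated best with their own number, a hint from the data alone.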

Other observations

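The UMIs of the trough genes came with slightly more UMIs per read than those of the libraries as a whole. Over the trough genes the ratio was 0.900 to 0.910 in the 4 libraries of day 10 replicates 1 and 2, and 0.758 to 0.830 in the other 14 libraries. At 0 UMIs were 3 and 2 trough genes in UV day 10 replicates 1 and 2, against 6 and 4 in control day 10 replicates 1 and 2, and 0 in replicate 3 of either arm. UV day 7 replicate 1, the shallowest library, also had 3.

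G38356, chosen after its values were seen, was the third trough gene with a library at 0, in control day 10 replicate 2, where 13.9 UMIs were predicted from the other 2 libraries of its group.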
